A study of Mus musculus with 20 samples.

Results

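The LPS response of young BV-2 microglia was measured in 10 of the 20 cultures of the study, 5 untreated and 5 exposed to LPS, which were chosen by their labels. BV-2 is a mouse microglial cell line of wild-type genotype, immortalised from mixed brain cultures of C57BL/6 mice 1 week of age, and the young cells were low-passage cultures kept in DMEM with foetal bovine serum. LPS (lipopolysaccharide from Escherichia coli, a glycolipid of the gram-negative outer membrane) was given at 100 ng/ml for 6 h. The other 10 cultures came from the same line after long-term cultivation of over 100 days (called aged), again 5 untreated and 5 with the same LPS exposure, and they serve below as the response most like the young one. The replicate numbers 1 to 5 are given as batches, so culture 1 of each group was one batch and the cultures of one number can be compared within it. All cultures are of 1 immortalised line, so spreads and p-values describe separate cultures of that line and not separate animals.

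LPS is recognised by Toll-like receptor 4 (TLR4), which works together with MD-2 (*Ly96*) and the co-receptor CD14 on the surface of microglia and macrophages. From the plasma membrane the adaptor MyD88 leads to the kinases of the IRAK and MAP kinase families, to NF-kappaB and to AP-1, which drive genes of cytokines, chemokines and of their own inhibitors. From endosomes the adaptor TRIF leads to the factor IRF3 and to type I interferon, which is secreted and acts back on the cell through JAK kinases and STAT factors to drive the antiviral genes. Microglia are the resident macrophages of the brain, and this switch from surveillance to defence is among their best known responses.

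Each culture gave one poly(A) RNA-seq library with 13929727 to 15577305 counted reads in the untreated and 11371508 to 15884447 in the LPS-treated group. Levels are CPM, the counts of a gene per 1000000 counts in tested genes, with library sizes scaled by TMM (trimmed mean of M values, which assumes that most genes do not change), and a count of 3, the floor of detection, was 0.181 to 0.296 CPM. All 12 markers of microglia and macrophages were tested, with summed levels of 4390 to 5555 CPM untreated and 4564 to 5859 CPM with LPS. Of 8 genes restricted to microglia 5 were tested, and *Sall1* and *Siglech* were at 0 in all young cultures. All 8 neuronal, all 8 fibroblast and all 8 lymphocyte or neutrophil markers were at the floor, as were Gfap, Aqp4, Aldh1l1 and Gja1 of the 8 astrocyte markers. The astrocyte list summed to 62.6 to 89.6 CPM untreated and 51.2 to 66.7 CPM with LPS, with *Aldoc* as its tested member. The 8 endothelial and pericyte markers summed to 308 to 333 CPM untreated and 326 to 405 CPM with LPS, with Flt1 as the tested member and 5 at the floor, and those of oligodendrocytes to at most 1.85 CPM, with 6 of 8 at the floor. The part of such cells in the results was not tested. Where a marker falls in such bulk RNA, fewer cells that express it and less RNA per cell cannot be told apart. Untreated culture 1 stood apart, since it was the highest of the 5 untreated cultures in 151 of the 290 genes that LPS raised at least 8-fold, against 27 to 56 of them in the other cultures. The summed level of those 290 genes was 2765 CPM in it, 1917 to 2216 CPM in untreated cultures 2 to 5 and 37458 to 51861 CPM in the LPS-treated cultures.

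The promoters of raised genes are shown because they hold motifs of factors named above. That of *Mcm5*, a lowered gene, is shown beside them and holds none of those motifs. Sequences are the 250 bases before the start of transcription from RefSeq on the GRCm38.p6 build, 5′ to 3′ on the strand of the gene. *Nfkbia* lies on the minus strand (chr12:55492648-55492897), *Il6* on the plus strand (chr5:30012864-30013113), *Cxcl10* on the minus strand (chr5:92348890-92349139), *Ifit1* on the plus strand (chr19:34640639-34640888), *Isg15* on the minus strand (chr4:156200819-156201068) and *Mcm5* on the plus strand (chr8:75109259-75109508). Capitals mark kappaB motifs in *Nfkbia*, *Il6*, *Cxcl10* and *Isg15*, cores of the interferon-stimulated response element (ISRE) in *Cxcl10*, *Ifit1* and *Isg15*, and CCAAT boxes in *Mcm5*. The CCAAT and AP-1 matches that *Il6* and *Cxcl10* also hold are left in small letters.
Nfkbia: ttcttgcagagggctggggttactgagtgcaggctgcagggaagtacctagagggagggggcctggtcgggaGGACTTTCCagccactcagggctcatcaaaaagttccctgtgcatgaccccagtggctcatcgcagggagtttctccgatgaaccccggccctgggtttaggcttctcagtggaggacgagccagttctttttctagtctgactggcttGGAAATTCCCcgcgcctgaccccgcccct
Il6: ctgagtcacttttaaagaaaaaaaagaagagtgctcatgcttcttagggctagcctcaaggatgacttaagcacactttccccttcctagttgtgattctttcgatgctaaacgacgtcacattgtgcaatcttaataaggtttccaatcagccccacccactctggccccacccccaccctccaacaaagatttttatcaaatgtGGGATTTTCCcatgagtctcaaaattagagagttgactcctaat
Cxcl10: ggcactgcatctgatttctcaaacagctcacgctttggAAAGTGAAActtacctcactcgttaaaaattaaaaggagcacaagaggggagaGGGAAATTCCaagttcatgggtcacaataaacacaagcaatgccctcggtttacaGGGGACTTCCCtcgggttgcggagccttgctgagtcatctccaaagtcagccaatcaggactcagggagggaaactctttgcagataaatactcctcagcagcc
Ifit1: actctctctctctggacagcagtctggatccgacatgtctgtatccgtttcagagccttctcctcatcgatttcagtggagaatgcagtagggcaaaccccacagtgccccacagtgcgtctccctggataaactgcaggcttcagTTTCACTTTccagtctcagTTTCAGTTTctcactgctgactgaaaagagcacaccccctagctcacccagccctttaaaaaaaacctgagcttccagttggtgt
Isg15: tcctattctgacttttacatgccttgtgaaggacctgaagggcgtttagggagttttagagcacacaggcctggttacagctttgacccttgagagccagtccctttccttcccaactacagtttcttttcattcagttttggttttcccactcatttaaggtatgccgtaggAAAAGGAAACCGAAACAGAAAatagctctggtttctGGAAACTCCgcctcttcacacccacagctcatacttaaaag
Mcm5: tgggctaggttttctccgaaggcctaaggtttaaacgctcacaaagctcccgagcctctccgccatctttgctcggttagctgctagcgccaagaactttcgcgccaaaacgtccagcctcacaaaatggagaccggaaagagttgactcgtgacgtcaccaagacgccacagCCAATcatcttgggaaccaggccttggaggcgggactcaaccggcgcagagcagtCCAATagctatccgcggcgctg

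The letters searched, on both strands, were GGNNTTTCC (called kappaB-like here), the kappaB consensus, TTTCNNTTT (the ISRE core), TGANTCA (AP-1), the TATA box letters TATAAA, the CCAAT box and the E2F letters TTTCCCGC, and the 2 kappaB motifs overlap in part. *Nfkbia*, whose IkB-alpha protein holds NF-kappaB in the cytoplasm, had kappaB-like letters 29 and 178 bases before its start. *Il6* had them 43 bases before its start and no ISRE core. *Ifit1* had the reverse, with ISRE cores 85 and 104 bases before the start and no kappaB motif, and *Isg15* had 3 overlapping ISRE cores 65 to 77 bases before the start beside a kappaB-like match at 41. *Cxcl10* carried both kinds, an ISRE core 212 bases before the start and kappaB matches at 103, 104, 158 and 159. *Mcm5*, a subunit of the replicative helicase, had CCAAT 22 and 77 bases before its start and neither of the other kinds.

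Over 300 bases of promoter (250 before and 50 after the start) of the 9040 tested genes that RefSeq gave, the letters were shared out unevenly among response classes. The ISRE core was found in 35.1% of promoters of genes raised at least 8-fold, 11.0% of those raised 2- to 8-fold, 6.74% of those lowered at least 2-fold, 7.19% of those tested and not called, and 10.6% of all RefSeq promoters. In the same order the kappaB-like letters were in 14.5%, 8.59%, 6.03%, 6.39% and 5.82%, and the consensus in 17.9%, 13.5%, 9.91%, 9.60% and 8.46%. The AP-1 letters followed the same order, with 19.1%, 7.83%, 5.72%, 5.09% and 7.81%. The TATA letters were in 17.6%, 8.96%, 7.35%, 7.41% and 13.6%. In the other direction CCAAT was in 43.3% of promoters of genes lowered at least 2-fold and 31.7% of those raised at least 8-fold, and the E2F letters in 3.27% and 0.763%. Over all promoters of tested genes CCAAT was in 38.1% and the E2F letters in 2.11%. There the ISRE core was in 8.14%, the kappaB-like letters in 6.33%, the consensus in 10.3%, AP-1 in 5.17% and TATA in 7.07%. These shares were not tested, and 262 promoters of 202 genes stood in the smallest class. An ISRE core together with a kappaB-like match was found in 6.49% of the promoters in that class, and neither in 56.9%.

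Exposure to LPS changed the transcriptome of young BV-2 cells in both directions, with the largest changes upwards. Of 12799 tested genes 8270 (64.6%) were differentially expressed at an adjusted p below 0.05, 3988 (31.2%) higher and 4282 (33.5%) lower with LPS. Most changes were small, as 74.4% of the differentially expressed genes moved by less than 2-fold. At least 2-fold higher were 1095 genes (8.56%) and at least 2-fold lower 1026 (8.02%), but at least 8-fold higher were 290 (2.27%) and at least 8-fold lower 53 (0.414%). The LPS-treated and untreated cultures did not overlap at all in 3053 genes (23.9%) that were higher and 3230 (25.2%) that were lower. The median log2 fold change over all tested genes was -0.011.

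A principal component analysis of the 500 most variable genes put 96.6% of the variance on the first axis, on which the untreated cultures lay between -46.3 and -36.3 and the LPS-treated ones between 37.4 and 47.3. The direction of a small change rests on the scaling. The TMM factors were 1.04 to 1.07 in untreated and 0.891 to 0.931 in LPS-treated libraries, in which the genes raised at least 8-fold held 3.48% to 4.62% of all counts, against 0.204% to 0.288% in the untreated libraries. With library sizes alone the median gene shifted by -0.22 on the log2 scale, and 27.3% of the differentially expressed genes were higher (2407 higher and 6401 lower) where TMM gave 48.2%. Changes larger than that shift keep their sign under both scalings, and lists that do not are marked as such below.

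**Figure D1:**
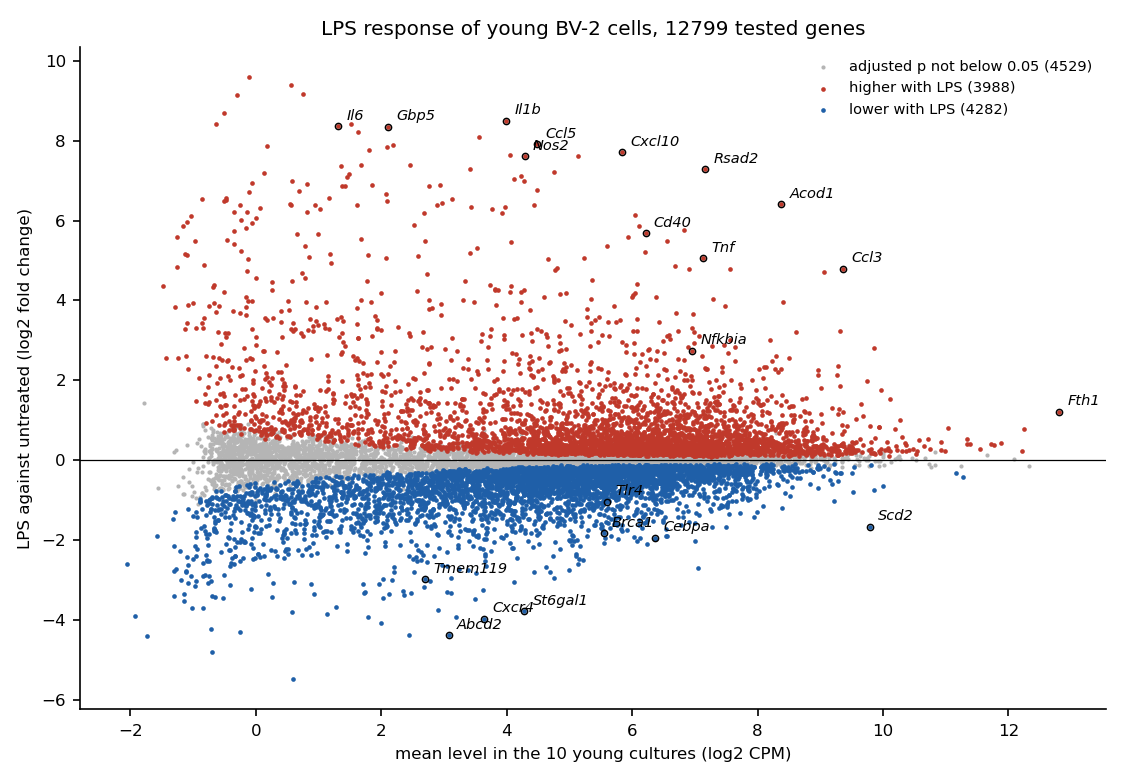
Each point is 1 of the 12799 tested genes, with the mean level in the 10 young cultures (log2 CPM) on the horizontal axis and the log2 fold change of LPS against untreated cultures on the vertical axis. Red points were called higher (3988), blue points lower (4282), and the named genes show that rises reach further from 0 than falls.

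The receptor of LPS itself was lower after the exposure while its partners *Cd14* and *Ly96* were higher. *Tlr4* was measured at 68.8, 76.8, 69.3, 67.8 and 64.3 CPM in untreated cultures 1 to 5 and 28.7, 34.6, 32.3, 37.8 and 35.6 CPM in LPS-treated cultures 1 to 5, so that no LPS-treated culture reached an untreated one (log2 fold change -1.03 ± 0.095 (SE), adjusted p = 2.37e-09). *Cd14*, the co-receptor that hands LPS to the complex, moved the other way, with 118, 80.8, 84.3, 47.6 and 56.7 CPM in untreated cultures 1 to 5 and 709, 565, 622, 394 and 479.6 CPM in LPS-treated cultures 1 to 5 (log2 fold change 2.84 ± 0.21 (SE), adjusted p = 5.34e-11). *Ly96*, which encodes the LPS-binding MD-2, rose from 4.72 ± 0.268 CPM (SD, n = 5) to 8.14 ± 0.852 CPM (SD, n = 5). In the receptor complex 5 of 6 listed members were tested, 3 rose and 2 fell (median log2 fold change 0.34), and *Lbp*, the serum protein that carries LPS, had at most 4 counts. Among the other Toll-like receptors 9 of 12 listed members were tested, 7 rose and 2 fell (median log2 fold change 0.32). *Tlr2*, the receptor of bacterial lipopeptides, had 112 to 159 CPM untreated and 534 to 858 CPM with LPS, and *Tlr3*, the endosomal receptor of double-stranded RNA, 0.593 to 1.09 CPM untreated and 11.7 to 20.8 CPM with LPS. Against them *Tlr8* fell to the floor in all 5 LPS-treated cultures and was at least 11.0-fold lower. With library sizes alone 3 of the 9 other receptors rose.

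Of the adaptors and kinases below the receptor 23 of 25 listed members were tested, 14 rose and 5 fell (median log2 fold change 0.28), while 11 rose and 9 fell with library sizes alone. *Myd88*, the adaptor of the plasma membrane branch, had 97, 102, 96.3, 100 and 107 CPM in untreated cultures 1 to 5 and 244, 241, 215, 179.5 and 209 CPM in LPS-treated cultures 1 to 5 (log2 fold change 1.12 ± 0.070 (SE), adjusted p = 3.07e-12). The annotation places exons of Acaa1a over part of it, so reads of both may mix. *Irak2*, a kinase of the same complex, rose 4.83-fold, and *Irak3*, the pseudokinase known as a brake on it, 8.68-fold (3.38 to 5.45 CPM untreated and 36.3 to 42 CPM with LPS), again with an overlapping neighbour, Tmbim4. Both the driver and the brake of this step were therefore higher in all LPS-treated cultures than in any untreated one. *Ticam2*, the bridging adaptor of the TRIF branch, was 2.02-fold lower (adjusted p = 2.77e-07), and it overlaps Tmed7. *Map3k8*, a kinase that leads to the MAP kinases, went from 5.30 ± 0.618 CPM (SD, n = 5) to 21.8 ± 4.75 CPM (SD, n = 5).

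NF-kappaB and its own inhibitors rose together. Of the NF-kappaB subunits and IkB proteins all 11 listed members were tested, and all 11 rose (median log2 fold change 2.17). *Nfkbia* had 37.5, 54.8, 48.7, 49.4 and 51.3 CPM in untreated cultures 1 to 5 and 373, 358, 336, 252 and 301 CPM in LPS-treated cultures 1 to 5 (log2 fold change 2.74 ± 0.12 (SE), adjusted p = 7.72e-15). Its promoter with the kappaB letters is printed above. *Nfkbiz*, the nuclear IkB that helps a second wave of targets including *Il6*, had 20.4, 20.3, 20.8, 19.4 and 17.8 CPM in untreated cultures 1 to 5 and 251, 251, 246, 192 and 208 CPM in LPS-treated cultures 1 to 5 (log2 fold change 3.54 ± 0.089 (SE), adjusted p = 9.63e-19). *Relb*, a subunit of the alternative pathway, rose 5.92-fold, while *Rela*, the p65 subunit of the classical pathway, rose 1.88-fold (68.8 to 75.2 CPM untreated and 124 to 155 CPM with LPS). The groups did not overlap for either subunit, and *Rel* had the smallest rise of the list (0.72).

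Genes of negative feedback were raised as well. Of these regulators all 23 listed members were tested, 20 rose and 1 fell (median log2 fold change 2.61). *Tnfaip3*, which encodes the ubiquitin-editing enzyme A20, had 10.6, 8.76, 11.1, 9.56 and 10.1 CPM in untreated cultures 1 to 5 and 199.9, 171, 175, 136 and 148 CPM in LPS-treated cultures 1 to 5 (log2 fold change 4.05 ± 0.11 (SE), adjusted p = 2.10e-18). *Socs3*, an inhibitor of JAK signalling, had 8.45 to 10.6 CPM untreated and 44.5 to 95.4 CPM with LPS, with its lowest values among LPS-treated cultures in cultures 4 and 5. *Zc3h12a*, an RNase that degrades cytokine mRNAs, rose 9.36-fold. *Usp18*, which blocks the interferon receptor, rose from 4.14, 0.959, 1.33, 1.05 and 0.732 CPM in untreated cultures 1 to 5 to 174, 147, 105, 87.3 and 128 CPM in LPS-treated cultures 1 to 5. *Zfp36l1*, an RNA-decay factor, was the one member that fell (-1.62, adjusted p = 7.39e-11).

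Among AP-1 and other immediate-early factors 19 of 23 listed members were tested, 12 rose and 4 fell (median log2 fold change 1.09). *Junb* had 94 to 105 CPM untreated and 194 to 279 CPM with LPS, although exons of *Prdx2* overlap it. *Atf3*, a stress-induced repressor of inflammatory genes, rose 5.08-fold, and *Ier3*, an early response gene, 12-fold. *Nr4a1*, an orphan nuclear receptor that is known as a very early and short-lived response gene, was lower at this time, with 14.1, 11.4, 14.5, 9.49 and 6.79 CPM in untreated cultures 1 to 5 and 2.86, 1.58, 3.17, 3.13 and 2.95 CPM in LPS-treated cultures 1 to 5 (log2 fold change -2.03 ± 0.22 (SE), adjusted p = 3.26e-08). Of the transcription factors of the myeloid lineage 19 of 20 listed members were tested, 6 rose and 10 fell (median log2 fold change -0.13). These are 31.6% and 52.6%, beside 31.2% and 33.5% of all tested genes. *Spi1*, which encodes the master factor PU.1, had 269 to 282 CPM untreated and 589 to 685 CPM with LPS, and *Cebpb* and *Cebpd*, known for inflammatory gene expression, rose 2.83-fold and 6.46-fold, both with an overlapping gene (Tmem189 and Spidr). *Cebpa*, the family member of resting and differentiating myeloid cells, fell from 163 ± 25.7 CPM (SD, n = 5) to 42.5 ± 5.795 CPM (SD, n = 5) (log2 fold change -1.94 ± 0.11 (SE), adjusted p = 7.13e-13). *Klf2*, *Klf4* and *Mef2c*, factors linked to quiescent macrophages and microglia, fell as well, with log2 fold changes of -2.34, -1.87 and -1.89.

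Most tested cytokine genes were higher, several of them from near silence. Of the cytokines 17 of 32 listed members were tested, 16 rose and 1 fell (median log2 fold change 5.07), and with the 4 members that were at the floor in all untreated cultures set at their lower bound the median was 4.26. Such members passed the filter on low counts only through LPS-treated libraries, while members silent in both groups were not tested. The share that rose was therefore fixed in part by the filter, here and in the lists below with members at their bound. Members with few untreated counts above the floor may have passed in the same way, so those at their bound are a minimum. *Tnf*, the early proinflammatory cytokine, had 30.1, 21, 28.6, 21.8 and 21 CPM in untreated cultures 1 to 5 and 1124, 836, 872, 614 and 666 CPM in LPS-treated cultures 1 to 5 (log2 fold change 5.07 ± 0.18 (SE), adjusted p = 1.43e-16). *Il1b*, whose product is cut by caspase-1 to become active, had 0.690, 0.959, 2.23, 0.198 and 0.599 CPM in untreated cultures 1 to 5 and 633, 389.7, 469, 98.5 and 166 CPM in LPS-treated cultures 1 to 5 (log2 fold change 8.50 ± 0.75 (SE), adjusted p = 1.21e-09). *Il1a*, its relative, had 2.97, 2.75, 3.80, 1.98 and 0.732 CPM in untreated cultures 1 to 5 and 599.9, 453, 461, 141 and 188 CPM in LPS-treated cultures 1 to 5 (log2 fold change 7.22 ± 0.53 (SE), adjusted p = 4.67e-11). The 3 genes were not overlapping between groups, but within the LPS group *Il1a* and *Il1b* were lowest in cultures 4 and 5. *Il6* was nearly absent in untreated cultures, with 0.276, 0.0639, 0.121, 0 and 0 CPM, and had 52, 47.7, 27.7, 12 and 25.8 CPM in LPS-treated cultures 1 to 5 (log2 fold change 8.36 ± 0.69 (SE), adjusted p = 3.36e-09, and 8.95 without replicate 1). *Il27*, a subunit of interleukin-27, was at the floor in all untreated cultures and at least 103-fold higher with LPS, although exons of Apobr lie over part of it. *Tnfsf10*, which encodes the death ligand TRAIL, was at least 25-fold higher. Of the antagonists and slower cytokines, *Il1rn* (5.22), *Il18* (2.44), *Il15* (2.19) and *Tgfb1* (0.45 on the log2 scale) rose too. *Tnfsf13b*, the B-cell survival factor BAFF, was the one tested cytokine that fell, from 11.7 ± 0.874 CPM (SD, n = 5) to 5.39 ± 0.536 CPM (SD, n = 5).

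Some cytokines that are textbook products of LPS-treated macrophages were not detectable at this depth or close to it. *Il10* had at most 5 counts in any young culture, *Il12b* at most 8, *Ifnb1* at most 7 and *Csf2* none, and none of these 4 entered the test. The 7 counts of *Ifnb1* were in the LPS-treated group, as its untreated cultures were at 0. *Csf3*, the granulocyte colony-stimulating factor, rose from 1.72, 0.959, 0.845, 0.593 and 0.333 CPM in untreated cultures 1 to 5 to 84, 63.1, 95.9, 82.9 and 87.3 CPM in LPS-treated cultures 1 to 5 (log2 fold change 6.53 ± 0.24 (SE), adjusted p = 3.12e-14). *Csf1*, the macrophage growth factor, rose by a log2 fold change of 2.01. These 2 were the tested members of the 4 colony-stimulating factors, both higher (median log2 fold change 4.27).

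Chemokines that attract monocytes and T cells were raised from low to high levels. Of the CC chemokines 10 of 18 listed members were tested, 8 rose and 1 fell (median log2 fold change 5.08), and with *Ccl12*, at the floor in all untreated cultures, at its bound the median was 4.41. *Ccl3*, the macrophage inflammatory protein MIP-1 alpha, had 165, 106, 119, 114 and 122 CPM in untreated cultures 1 to 5 and 3813, 3513, 3484, 3012 and 3593 CPM in LPS-treated cultures 1 to 5 (log2 fold change 4.80 ± 0.11 (SE), adjusted p = 5.50e-19). Per kilobase of exon it went from rank 194 to rank 1 among protein-coding genes by mean RPKM (CPM divided by exon length in kilobases, 164 untreated and 4547 with LPS), above the ferritin genes *Ftl1* (3299.5 RPKM) and *Fth1* (3166 RPKM). *Ccl4*, its neighbour in function, moved from rank 3840 to rank 22. *Ccl5* had 0.895 to 2.21 CPM untreated and 216 to 462 CPM with LPS (a 242-fold rise) and *Ccl2* 4.73 to 9.93 CPM untreated and 222 to 533 CPM with LPS. *Ccl24*, an eosinophil attractant, fell by 1.09 on the log2 scale. *Ccl17*, *Ccl20* and *Ccl22* had at most 1, 8 and 10 counts.

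Of the CXC and CX3C chemokines 5 of 15 listed members were tested, 3 rose and 1 fell (median log2 fold change 2.51). *Cxcl10*, an interferon-induced attractant of T cells whose promoter above carries both kinds of motif, had 7.93, 2.88, 7.24, 2.18 and 1.93 CPM in untreated cultures 1 to 5 and 1607, 1126, 773, 465 and 704 CPM in LPS-treated cultures 1 to 5 (log2 fold change 7.71 ± 0.50 (SE), adjusted p = 4.55e-12). Its LPS-treated values spread more than 3-fold between cultures 1 and 4, while staying far above the untreated ones. *Cxcl2*, an attractant of neutrophils, had 0.132 to 2.69 CPM untreated and 123 to 303 CPM with LPS (log2 fold change 8.08, or 9.08 without replicate 1), and *Cxcl14*, a chemokine of resting tissue, fell from 57.7 ± 3.70 CPM (SD, n = 5) to 24.6 ± 2.33 CPM (SD, n = 5). *Cxcl1* had at most 1 count. Without the filter on low counts 6 members were higher. Chemokine receptors were mostly not expressed: 4 of 15 listed members were tested, 1 rose and 2 fell (median log2 fold change -0.48). These are 25% and 50%, beside 31.2% and 33.5% of all tested genes. *Cxcr4* had 63.9, 50.9, 48.8, 38.8 and 40.3 CPM in untreated cultures 1 to 5 and 4.05, 2.82, 2.55, 3.43 and 2.87 CPM in LPS-treated cultures 1 to 5 (log2 fold change -3.96 ± 0.14 (SE), adjusted p = 2.01e-16). *Cx3cr1*, the fractalkine receptor of microglia, was low in all cultures (0.396 to 1.73 CPM untreated and 0.249 to 0.597 CPM with LPS) and lost its call without replicate 2 or 3 (adjusted p = 0.116 and 0.0837). *Ccrl2*, an atypical receptor that binds chemerin, rose 72.5-fold.

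Enzymes that make small mediators changed in both directions. Of the enzymes of nitric oxide, prostaglandins and itaconate 16 of 23 listed members were tested, 10 rose and 5 fell (median log2 fold change 0.44). These are 62.5% and 31.25%, beside 31.2% and 33.5% of all tested genes. *Acod1*, which makes the antimicrobial metabolite itaconate, had 121, 21, 23.2, 21.8 and 22.6 CPM in untreated cultures 1 to 5 and 3176, 3893, 3583, 3492 and 3623 CPM in LPS-treated cultures 1 to 5 (log2 fold change 6.41 ± 0.43 (SE), adjusted p = 9.44e-12). Untreated culture 1 held over 5 times the level of the other untreated cultures, and the LPS-treated levels lay close together (log2 fold change 7.35 without replicate 1). *Nos2*, the inducible nitric oxide synthase, had 3.38, 0.767, 2.05, 0.923 and 0.533 CPM in untreated cultures 1 to 5 and 431, 355, 358, 130.4 and 224 CPM in LPS-treated cultures 1 to 5 (log2 fold change 7.61 ± 0.48 (SE), adjusted p = 3.23e-12). *Ptgs2*, the inducible cyclooxygenase, went from 8.91 ± 2.04 CPM (SD, n = 5) to 428 ± 82 CPM (SD, n = 5), whereas *Ptgs1*, the constitutive one, fell from 136 ± 9.26 CPM (SD, n = 5) to 34 ± 4.73 CPM (SD, n = 5), with no overlap in either gene. *Ch25h*, which makes an antiviral oxysterol, had no count in any young culture. Exons of Gm26902 lie over part of it, so its reads may have been left uncounted.

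**Figure D2:**
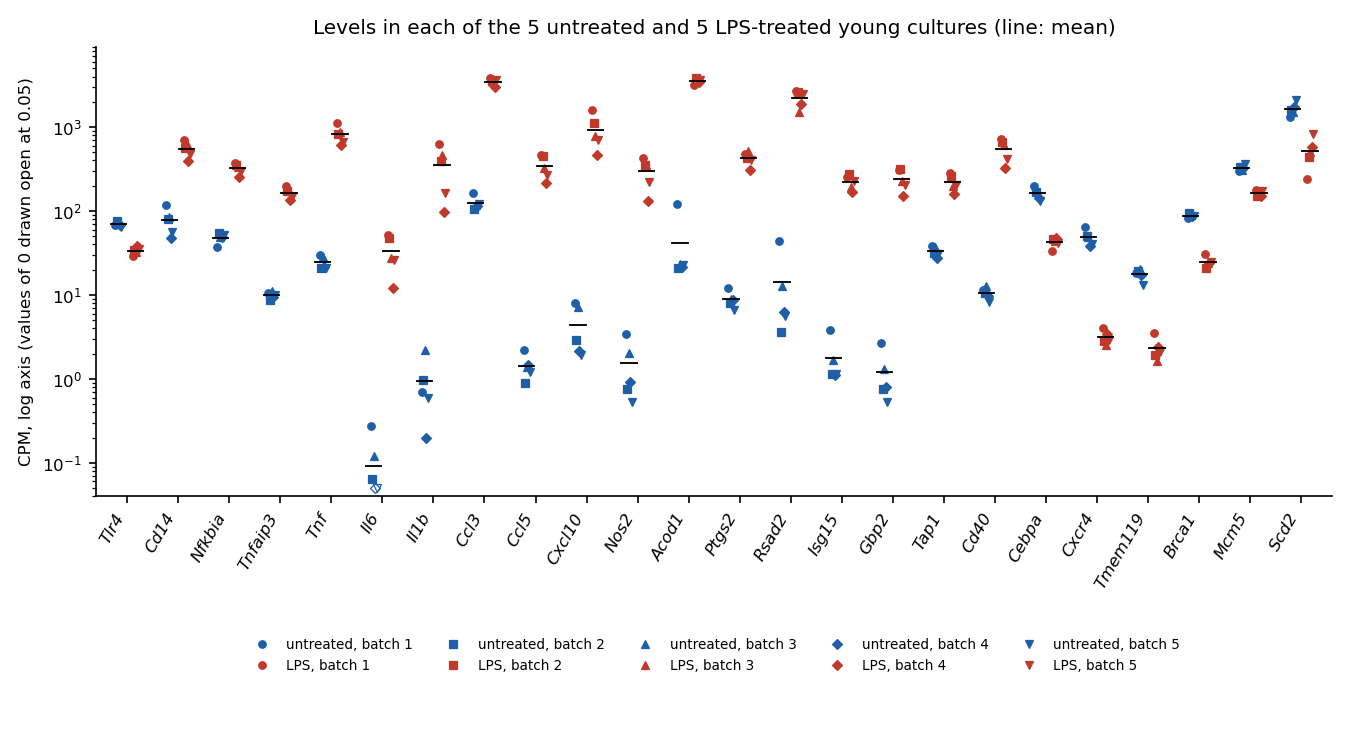
Levels of 24 named genes (CPM, log axis) in each of the 5 untreated (blue) and 5 LPS-treated (red) young cultures, with a marker shape for each batch and a line at the mean of each group, and values of 0 drawn open at 0.05. The groups do not overlap in any of these genes, and untreated culture 1 (blue circles) lies above the other untreated cultures for Acod1, Rsad2 and Isg15.

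Genes of the antiviral branch rose almost without exception. Of the 55 listed antiviral genes 51 were tested, 50 rose and 1 fell (median log2 fold change 5.32, or 5.16 with 3 members at their bound). *Rsad2*, which encodes viperin, had 43.7, 3.64, 12.7, 6.20 and 5.59 CPM in untreated cultures 1 to 5 and 2673, 2599.9, 1517, 1884 and 2471 CPM in LPS-treated cultures 1 to 5 (log2 fold change 7.29 ± 0.52 (SE), adjusted p = 3.07e-11). Its neighbour *Cmpk2* had 0.703 to 6.55 CPM untreated and 389.8 to 709 CPM with LPS, *Ifit1* 0.575 to 4.83 CPM untreated and 192 to 309 CPM with LPS and *Isg15*, a ubiquitin-like modifier, 1.12 to 3.79 CPM untreated and 170.3 to 274 CPM with LPS. In these 4 genes untreated culture 1 was the highest of the untreated ones, and without replicate 1 the log2 fold change went from 7.29 to 8.21 for *Rsad2* and from 7.12 to 7.81 for *Ifit1*. *Mx1*, an antiviral GTPase, had 0 to 0.362 CPM untreated and 30.8 to 57.7 CPM with LPS (log2 fold change 8.22, or 9.16 without replicate 3), and *Ifi205*, a DNA sensor family member, was at least 196-fold higher. *Oasl1* was already present without LPS and rose 27.4-fold.

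Of the regulators above them, the interferon regulatory factors and the JAK-STAT pathway, 21 of 24 listed members were tested, 14 rose and 6 fell (median log2 fold change 0.48). *Irf7*, which amplifies interferon, had 4.76, 1.15, 2.66, 1.71 and 2.06 CPM in untreated cultures 1 to 5 and 271, 236, 200.2, 135 and 188 CPM in LPS-treated cultures 1 to 5 (log2 fold change 6.39 ± 0.30 (SE), adjusted p = 1.86e-14), with exons of Phrf1 over part of it. *Stat2*, a factor that carries the interferon signal, went from 12.3 ± 1.23 CPM (SD, n = 5) to 134 ± 24.9 CPM (SD, n = 5). *Irf1* rose 4.68-fold and *Stat5a* was 1.76-fold lower, the latter with exons of *Stat3* over part of it. The guanylate-binding proteins and immunity-related GTPases, which attack vacuoles of pathogens, rose too: 10 of 17 listed members were tested, and all 10 rose (median log2 fold change 6.69), or 5.27 with 2 members at their bound. *Gbp2* had 0.533 to 2.69 CPM untreated and 152 to 315 CPM with LPS and *Gbp5*, which is linked to the inflammasome, 0 to 0.690 CPM untreated and 41 to 106 CPM with LPS (log2 fold change 8.35, or 9.20 without replicate 1). Members of these families are near-identical in part, so the split of reads between them is uncertain.

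Some of the raised genes are neighbours on the chromosome. On GRCm38, 14 runs of at least 4 adjacent tested protein-coding genes were all called and at least 2-fold higher (74 genes, 7.83% of the 945 protein-coding genes raised that far) and 2 runs were lower (9 genes). The interferon-activated Ifi200 genes from *Ifi206* to *Ifi205* with *Olfr433* (chr1:173468485-174044411) held 9 genes with log2 fold changes of 2.87 to 8.41. The run from *Irgm1* to *Ifi47* (chr11:48861968-49135387) also held 9 (1.33 to 8.43). The Ifit genes (chr19:34550694-34650009) held 6 (5.49 to 7.28), the Slfn genes (chr11:82951349-83190216) 5 (1.63 to 6.44), the Oas genes (chr5:120730333-120907521) 5 (1.43 to 4.81) and *Gbp5* to *Gbp2* (chr3:142493978-142638008) 4 (6.90 to 8.35). Outside the interferon families there were runs of Trem receptors (chr17:48149126-48327024, 6 genes, 1.03 to 4.26), Serpinb inhibitors (chr13:32881434-33094380, 5 genes, 1.01 to 5.14) and of *Clec2d*, *Cd69*, *Clec12a* and *Olr1* (chr6:129180615-129507165, 2.83 to 9.59). Runs were not compared with what gene order alone would give. Copies within such families share sequence, and reads that could belong to several of them were not traced.

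Presentation on MHC class I rose as a group: 22 of 24 listed members were tested, 20 rose and the other 2 were not called (median log2 fold change 1.51). *Tap1*, the peptide transporter, had 38.1, 31.7, 37.1, 27.9 and 30.8 CPM in untreated cultures 1 to 5 and 280.3, 262, 201, 159 and 203 CPM in LPS-treated cultures 1 to 5 (log2 fold change 2.74 ± 0.17 (SE), adjusted p = 2.78e-12). *Psmb9*, its neighbour and an immunoproteasome subunit, had 4.55 to 8.97 CPM untreated and 14.5 to 27.3 CPM with LPS, with exons of both genes overlapping. *H2-T24* was barely detected without LPS and rose 44.8-fold (0.604 to 1.07 CPM untreated and 36.5 to 45.1 CPM with LPS). Class II was largely silent: 5 of 10 listed members were tested, 2 rose and the other 3 were not called (median log2 fold change 0.058), and *H2-Aa*, *H2-Ab1* and *H2-Eb1* had no count in any young culture. *Cd74*, the invariant chain, nevertheless went from 51.1 ± 10.2 CPM (SD, n = 5) to 239 ± 65 CPM (SD, n = 5), and with library sizes alone the median of the list was -0.16. Of the costimulatory and adhesion molecules 17 of 21 listed members were tested, 12 rose and 3 fell (median log2 fold change 1.0). *Cd40*, the receptor of CD40 ligand, had 11.5, 10.4, 12.8, 9.82 and 8.26 CPM in untreated cultures 1 to 5 and 716, 662, 604, 322 and 415 CPM in LPS-treated cultures 1 to 5 (log2 fold change 5.68 ± 0.26 (SE), adjusted p = 1.19e-14). *Icam1* rose 7.40-fold, whereas *Cd86*, the partner of CD28 on T cells, was 2.27-fold lower (62 to 74.2 CPM untreated and 27.6 to 34.5 CPM with LPS).

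Of the inflammasome genes 14 of 16 listed members were tested, 7 rose and 3 fell (median log2 fold change 0.37). These are 50% and 21.4%, beside 31.2% and 33.5% of all tested genes. *Nlrp3*, the sensor, had 27.7 to 36 CPM untreated and 249.2 to 320.4 CPM with LPS, and *Casp4*, the caspase that binds cytosolic LPS, 4.29 to 6.83 CPM untreated and 54.2 to 70.7 CPM with LPS, both without overlap between the groups. *Casp1* rose by a log2 fold change of 1.35 and *Gsdmd*, the pore-forming effector, by 0.56, while *Pycard*, the usual adaptor, had no count in any young culture. *Nek7*, which binds *Nlrp3*, fell (-0.69). Of death receptors and survival factors 25 of 28 listed members were tested, 19 rose and 3 fell (median log2 fold change 0.56), while 14 rose and 5 fell with library sizes alone. *Fas* went from 0.260 ± 0.0797 CPM (SD, n = 5) to 7.00 ± 1.35 CPM (SD, n = 5), and *Tnfrsf1b*, the second TNF receptor, had 264, 204, 213, 185 and 176 CPM in untreated cultures 1 to 5 and 2305, 2083, 2222, 1573 and 1668 CPM in LPS-treated cultures 1 to 5 (log2 fold change 3.24 ± 0.15 (SE), adjusted p = 9.11e-15). *Traf1*, an adaptor of TNF receptors, rose 80.2-fold (log2 fold change 6.33, or 7.08 without replicate 1) and *Birc3*, a ubiquitin ligase that limits cell death, 3.50-fold.

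Genes of resting microglia were mostly lower. Of the homeostatic list 14 of 19 listed members were tested, 1 rose and 11 fell (median log2 fold change -1.18), the one rise being that of *Selplg*. *Tmem119*, a surface marker of microglia, had 18.3, 19.4, 20.3, 17.5 and 13.3 CPM in untreated cultures 1 to 5 and 3.56, 1.91, 1.66, 2.39 and 2.06 CPM in LPS-treated cultures 1 to 5 (log2 fold change -2.97 ± 0.19 (SE), adjusted p = 5.88e-12). *P2ry12* and *P2ry13*, receptors by which microglia sense nucleotides, were low even at rest (0.414 to 1.87 CPM untreated and 0 to 0.498 CPM with LPS, and 2.00 to 4.99 CPM untreated and 0.593 to 1.93 CPM with LPS) and had log2 fold changes of -2.49 and -1.51, the first with overlapping groups and with exons of Med12l over part of it. *Mertk*, a receptor for dying cells, had a log2 fold change of -2.39 and *Adgrg1* of -2.49.

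Of the genes of disease-associated microglia all 22 listed members were tested, 9 rose and 6 fell (median log2 fold change -0.10). These are 40.9% and 27.3%, beside 31.2% and 33.5% of all tested genes, and with library sizes alone 3 rose and 11 fell. *Apoe* was lower (-0.42, adjusted p = 0.0287), but its groups overlapped (2175 to 3419.6 CPM untreated and 1467 to 2685 CPM with LPS), DESeq2 gave an adjusted p of 0.068 and edgeR 0.0678 and 0.0750 without replicates 2 and 5. Within batches *Apoe* changed by -0.57 to -0.35 on the log2 scale, and edgeR with the replicate block gave an adjusted p of 0.00171. *Trem2*, a lipid-sensing receptor, fell from 326 ± 41.4 CPM (SD, n = 5) to 197 ± 33.2 CPM (SD, n = 5). *Lilrb4a*, an inhibitory receptor, rose 7.69-fold, with *Gm49339* annotated over the same exons. *Spp1*, osteopontin, rose by 0.41 on the log2 scale with overlapping groups, and lost its call with library sizes alone (adjusted p = 0.113). Within batches *Spp1* changed by 0.26 to 0.63, and edgeR with the replicate block gave an adjusted p of 1.77e-04. *Gpnmb*, among the most abundant genes of the cells, had 4438 to 7719 CPM untreated and 4282 to 6634 CPM with LPS.

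Of the Fc, complement and scavenger receptor genes all 28 listed members were tested, 14 rose and 8 fell (median log2 fold change 0.46). These are 50% and 28.6%, beside 31.2% and 33.5% of all tested genes. Complement *C3* had 33.2, 36.9, 42.4, 34 and 32.2 CPM in untreated cultures 1 to 5 and 540.0, 533, 460.1, 345 and 382 CPM in LPS-treated cultures 1 to 5 (log2 fold change 3.66 ± 0.15 (SE), adjusted p = 2.78e-15). *Cfb*, factor B of the alternative pathway, had 0.132 to 0.552 CPM untreated and 31.6 to 89.3 CPM with LPS, with the readthrough transcript *Gm20547* annotated over the same exons. *Marco*, a scavenger receptor for bacteria, had 0.181 to 0.599 CPM untreated and 26.7 to 57 CPM with LPS. *C5ar2*, a second receptor of C5a, fell from 9.22 ± 1.56 CPM (SD, n = 5) to 1.04 ± 0.235 CPM (SD, n = 5). Of the extracellular proteases and inhibitors 18 of 24 listed members were tested, 14 rose and 4 fell (median log2 fold change 2.14). *Mmp13*, a collagenase, was at the floor untreated and at least 20.1-fold higher. *Timp2*, a metalloproteinase inhibitor, fell from 67.7 ± 15 CPM (SD, n = 5) to 33 ± 9.43 CPM (SD, n = 5). Of purinergic and adenosine signalling 11 of 17 listed members were tested, 4 rose and 6 fell (median log2 fold change -0.35), which is 36.4% and 54.5%. *P2ry1*, a receptor of ADP, fell from 28.2 ± 2.55 CPM (SD, n = 5) to 5.52 ± 1.13 CPM (SD, n = 5), and *Adora2b*, a receptor of adenosine, rose from 3.66 ± 0.474 CPM (SD, n = 5) to 20.9 ± 7.90 CPM (SD, n = 5).

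Genes that copy and mend DNA were lower together. Of the replication genes all 47 listed members were tested, 1 rose and 45 fell (median log2 fold change -0.91), and of the repair genes all 39 listed members were tested, 1 rose and 33 fell (median log2 fold change -0.89). *Mcm5*, whose CCAAT boxes are printed above, had 297, 332, 310.1, 324 and 368 CPM in untreated cultures 1 to 5 and 178, 151, 156, 152 and 176 CPM in LPS-treated cultures 1 to 5 (log2 fold change -1.0 ± 0.071 (SE), adjusted p = 2.48e-11). *Rrm2*, a subunit of ribonucleotide reductase, went from 152 ± 24 CPM (SD, n = 5) to 53.5 ± 6.43 CPM (SD, n = 5), and *Tk1*, thymidine kinase, fell 3.70-fold. *Cdc45*, a part of the helicase, fell 2.38-fold, with Ufd1 annotated over part of it. *Brca1*, of homologous recombination, had 83.1, 93.6, 88.6, 87 and 87.5 CPM in untreated cultures 1 to 5 and 30.4, 21.1, 23.9, 24 and 24.8 CPM in LPS-treated cultures 1 to 5 (log2 fold change -1.83 ± 0.089 (SE), adjusted p = 3.67e-14). No LPS-treated culture reached an untreated one in any of these 5 genes. *Orc2*, a subunit of the origin recognition complex, was the one replication gene that rose (0.38, adjusted p = 1.53e-05), with Nif3l1 annotated over part of it. The one repair gene called higher was *Fancc* (0.16, adjusted p = 0.0386), whose groups overlapped. It was not called without replicate 1 (adjusted p = 0.114) or in DESeq2 (adjusted p = 0.0520), and library sizes alone left 0 repair genes higher.

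Mitotic genes moved less and less evenly: all 50 listed members were tested, 1 rose and 34 fell (median log2 fold change -0.47). *Mki67*, the proliferation marker, went from 649 ± 73.7 CPM (SD, n = 5) to 397 ± 80.01 CPM (SD, n = 5), and *Ncapd2*, a condensin subunit, fell 2.50-fold. *Ccnb1*, cyclin B1, was not called (169 to 175 CPM untreated and 138 to 178 CPM with LPS, adjusted p = 0.115, but 0.00114 with library sizes alone and 0.0209 in the young libraries alone), *Plk1* had 152 to 199.6 CPM untreated and 114 to 195 CPM with LPS (adjusted p = 0.105, and 0.0252 without replicate 1), and *Pttg1* was the one that rose (0.76). Of the G1 cyclins and inhibitors 24 of 27 listed members were tested, 7 rose and 11 fell (median log2 fold change -0.14), while 6 rose and 16 fell with library sizes alone. The first counts are 29.2% and 45.8%, beside 31.2% and 33.5% of all tested genes. *Cdkn1a*, the inhibitor p21, had 25.7, 29.4, 25.6, 26.2 and 24.2 CPM in untreated cultures 1 to 5 and 211, 214, 160.3, 115 and 130.1 CPM in LPS-treated cultures 1 to 5 (log2 fold change 2.66 ± 0.15 (SE), adjusted p = 3.65e-13). *Cdkn2b* rose 9.13-fold and *Cdkn2c* fell from 25.4 ± 2.98 CPM (SD, n = 5) to 5.55 ± 0.943 CPM (SD, n = 5). *Myc* went from 3.55 ± 0.476 CPM (SD, n = 5) to 10.1 ± 1.18 CPM (SD, n = 5). *Ccnd1*, cyclin D1, had 109.9 to 163 CPM untreated and 106 to 140.3 CPM with LPS and was not called (log2 fold change -0.18, adjusted p = 0.164), but with the replicate number as a block its adjusted p was 0.00482, and without replicate 1, whose untreated culture was the lowest, 0.00221.

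Lipid genes changed in part, and those of cholesterol were called less often than all tested genes. Of the genes of cholesterol synthesis and uptake 26 of 28 listed members were tested, 3 rose and 8 fell (median log2 fold change -0.18), 13 fell with the replicate block and 15 with library sizes alone, and 5 without replicate 4. The first counts are 11.5% and 30.8%, beside 31.2% and 33.5% of all tested genes. *Stard4*, a sterol carrier, fell 2.14-fold. Of the fatty acid and LXR genes 20 of 23 listed members were tested, 5 rose and 8 fell (median log2 fold change -0.089), which is 25% and 40%. *Scd2*, a desaturase and among the most abundant genes at rest, had 1309.7, 1593, 1519.7, 1717 and 2104 CPM in untreated cultures 1 to 5 and 241, 442, 510.5, 584 and 824 CPM in LPS-treated cultures 1 to 5 (log2 fold change -1.66 ± 0.32 (SE), adjusted p = 1.00e-04). *Acsl1*, which activates fatty acids, rose 3.28-fold and the efflux pump *Abca1* 1.93-fold.

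Carbohydrate and energy metabolism moved by small amounts that rest on the scaling. Of glycolysis genes 27 of 30 listed members were tested, 14 rose and 5 fell (median log2 fold change 0.18), while library sizes alone gave 7 higher and 11 lower. *Slc2a1*, the glucose transporter GLUT1, had 68.6, 60.5, 68.1, 54 and 60.2 CPM in untreated cultures 1 to 5 and 228, 239, 259.6, 252 and 268 CPM in LPS-treated cultures 1 to 5 (log2 fold change 2.0 ± 0.076 (SE), adjusted p = 6.49e-16). *Hk2*, hexokinase 2, rose 1.84-fold and the lactate exporter *Slc16a3* 1.43-fold, and *Pfkm*, the muscle phosphofructokinase, fell 2.17-fold with Senp1 annotated over part of it. Of TCA cycle enzymes all 24 listed members were tested, 3 rose and 12 fell (median log2 fold change -0.12) (21 lower with library sizes alone). The first counts are 12.5% and 50%, beside 31.2% and 33.5% of all tested genes. *Pcx*, pyruvate carboxylase, went from 30.2 ± 5.23 CPM (SD, n = 5) to 49.2 ± 3.46 CPM (SD, n = 5). Of the subunits of oxidative phosphorylation all 70 listed members were tested, 3 rose and 12 fell (median log2 fold change -0.028), against 5 and 21 with the replicate block and 1 and 54 with library sizes alone. Here the first counts are 4.29% and 17.1%, below the shares of all tested genes. Mitochondrially encoded genes, of which 7 of 13 were tested, had no call by edgeR or DESeq2 and none at an unadjusted p below 0.05 (median log2 fold change -0.022), and *mt-Co1* had 2472 to 3849 CPM untreated and 2336 to 5064 CPM with LPS.

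Antioxidant and iron genes were raised. Of the NRF2 targets 28 of 31 listed members were tested, 18 rose and 5 fell (median log2 fold change 0.66), while 17 rose and 9 fell with library sizes alone. *Hmox1*, which breaks down haem, had 155, 151, 169, 157 and 139 CPM in untreated cultures 1 to 5 and 412, 1002, 1076, 1066 and 984 CPM in LPS-treated cultures 1 to 5 (log2 fold change 2.56 ± 0.19 (SE), adjusted p = 7.60e-11). LPS-treated culture 1 was well below the other 4. *Slc7a11*, the cystine importer, had 49.3, 18, 13.9, 24.3 and 17.9 CPM in untreated cultures 1 to 5 and 398, 689, 643, 922 and 722 CPM in LPS-treated cultures 1 to 5 (log2 fold change 4.78 ± 0.33 (SE), adjusted p = 2.15e-11), with its highest untreated and lowest LPS-treated value in culture 1. *Sod2*, the mitochondrial superoxide dismutase, went from 152 ± 8.63 CPM (SD, n = 5) to 734 ± 59.1 CPM (SD, n = 5), and *Cybb*, the catalytic subunit of NADPH oxidase, from 353 ± 45.3 CPM (SD, n = 5) to 2459 ± 215 CPM (SD, n = 5). Of the iron genes 12 of 14 listed members were tested, 8 rose and 1 fell (median log2 fold change 0.59), while 6 rose and 4 fell with library sizes alone. *Fth1*, ferritin heavy chain, had 4080.2 to 5664 CPM untreated and 10175 to 11875 CPM with LPS, the largest gain in CPM of any gene, and *Lcn2*, which binds bacterial siderophores, 0.0639 to 0.414 CPM untreated and 11.3 to 30.6 CPM with LPS. *Slc40a1*, the iron exporter ferroportin, was higher in LPS-treated cultures 2 to 5 but not in culture 1 (18.9, 18.1, 15, 13.8 and 13.2 CPM in untreated cultures 1 to 5 and 10.4, 26.1, 22.1, 25 and 25 CPM in LPS-treated cultures 1 to 5). Its call (adjusted p = 0.0276) was lost with library sizes alone and without replicate 2, 3, 4 or 5.

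Genes of protein synthesis and breakdown rose by small amounts. Of ribosome biogenesis genes all 61 listed members were tested, 44 rose and 3 fell (median log2 fold change 0.27), with 25 higher and 14 lower for library sizes alone. *Nop56*, a nucleolar protein, went from 337 ± 16.1 CPM (SD, n = 5) to 479.8 ± 6.68 CPM (SD, n = 5), with *Idh3b* over part of it, whereas *Ubtf*, the factor of ribosomal DNA transcription, fell from 296 ± 8.00 CPM (SD, n = 5) to 159.7 ± 5.82 CPM (SD, n = 5). Of the aminoacyl-tRNA synthetases all 20 listed members were tested, 17 rose and the other 3 were not called (median log2 fold change 0.29) (8 higher and 3 lower with library sizes alone), with *Rars* at 248 to 298 CPM untreated and 419.7 to 485 CPM with LPS. Of the cytosolic ribosomal proteins 81 of 83 listed members were tested, 56 rose and the other 25 were not called (median log2 fold change 0.19). With the replicate block 75 rose, but library sizes alone left 1 higher and 1 lower. *Rps6* is an example, with a log2 fold change of 0.21 that became -0.00989 without TMM. The proteasome stood firmer: all 32 listed members were tested, 29 rose and the other 3 were not called (median log2 fold change 0.43), 23 of them also with library sizes alone, and *Psmb6* went from 241 ± 15.5 CPM (SD, n = 5) to 458 ± 22.8 CPM (SD, n = 5).

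Of the integrated stress and unfolded protein response 25 of 26 listed members were tested, 11 rose and 4 fell (median log2 fold change 0.26), while 7 rose and 6 fell with library sizes alone (median 0.039). *Hspa5*, the chaperone BiP, had 802 to 1012 CPM untreated and 1394 to 1703 CPM with LPS, *Ddit3*, the factor CHOP, 4.03 to 5.93 CPM untreated and 11.4 to 24 CPM with LPS with *Mars* annotated over part of it, and *Eif2ak3*, the kinase PERK that senses unfolded protein, fell 2.00-fold. Of the lysosomal genes all 38 listed members were tested, 10 rose and 9 fell (median log2 fold change 0.0013), against 1 and 16 with library sizes alone. The first counts are 26.3% and 23.7%, beside 31.2% and 33.5% of all tested genes. *Ctsz*, cathepsin Z, went from 2163 ± 248 CPM (SD, n = 5) to 3146 ± 275 CPM (SD, n = 5). *Sgsh*, a heparan sulfate hydrolase with Card14 over part of it, fell from 26.9 ± 5.00 CPM (SD, n = 5) to 4.01 ± 0.469 CPM (SD, n = 5), and among abundant lysosomal genes *Psap* (-0.32) and *Lgmn* (-0.75 on the log2 scale) fell.

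**Figure D3:**
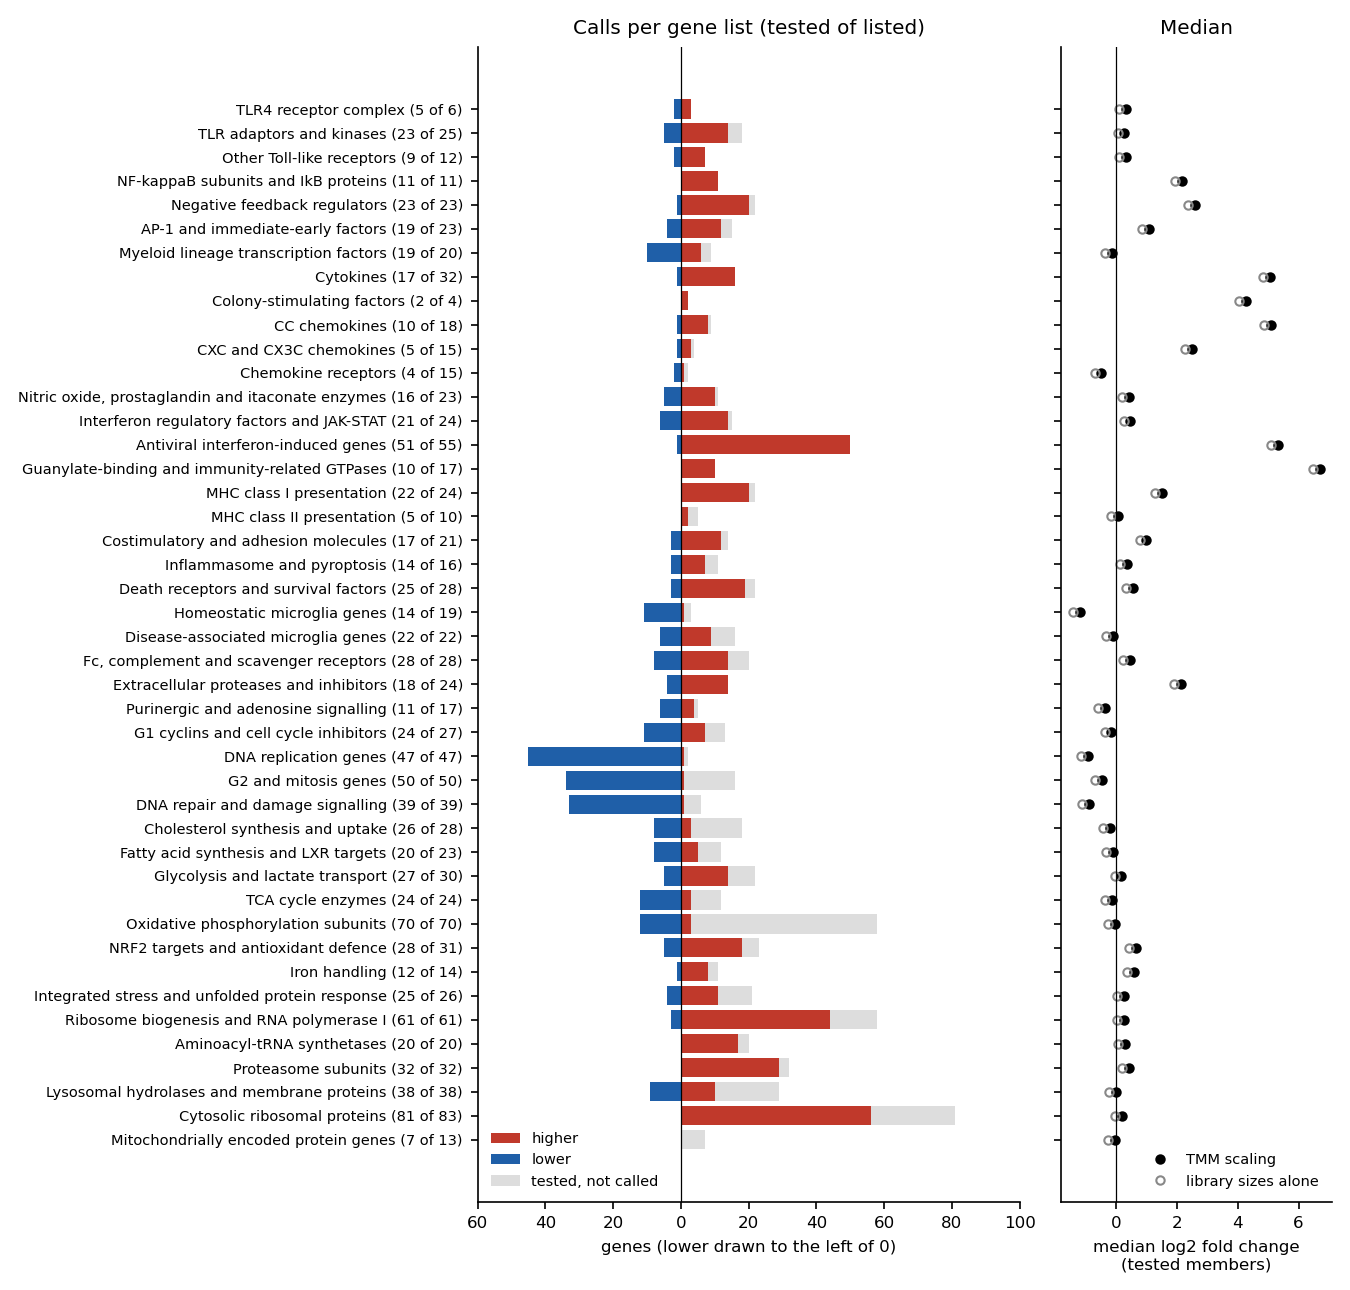
Left, number of tested members called higher (red), lower (blue, drawn to the left of 0) or not called (grey) in each of 44 gene lists, with tested of listed members in parentheses. Right, median log2 fold change of the tested members with TMM (filled) and with library sizes alone (open), which lies lower for all lists. With TMM, replication, repair and mitosis hold the most falls, and GTPases, antiviral genes and CC chemokines the highest medians.

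Large falls were also found outside these pathways. Among genes whose groups did not overlap, *Abcd2*, a peroxisomal transporter of long fatty acids, had 42.6, 42.8, 40.8, 31.7 and 30.1 CPM in untreated cultures 1 to 5 and 2.47, 1.99, 2.14, 1.57 and 1.03 CPM in LPS-treated cultures 1 to 5 (log2 fold change -4.37 ± 0.21 (SE), adjusted p = 2.57e-14). *Lpin1*, a phosphatidate phosphatase, went from 24.5 ± 1.31 CPM (SD, n = 5) to 1.19 ± 0.578 CPM (SD, n = 5), *Fbxo32*, a ubiquitin ligase, from 7.58 ± 1.53 CPM (SD, n = 5) to 0.526 ± 0.187 CPM (SD, n = 5) and *St6gal1*, a sialyltransferase, from 71 ± 3.16 CPM (SD, n = 5) to 5.19 ± 0.412 CPM (SD, n = 5). *Lbh*, a regulator of transcription, was lowest in culture 1 of both groups (18.2, 37.9, 38.3, 46.3 and 52.1 CPM in untreated cultures 1 to 5 and 0.790, 1.74, 2.14, 3.66 and 3.98 CPM in LPS-treated cultures 1 to 5), and yet its groups did not overlap. Besides *Fth1* the largest gains in CPM were in *Acod1*, *Ccl3*, *Rnf213* (from 106 ± 31.3 CPM (SD, n = 5) to 2791 ± 547 CPM (SD, n = 5)), *Actb* (from 3695 ± 424 CPM (SD, n = 5) to 6400.5 ± 502 CPM (SD, n = 5)), *Rsad2*, *Cybb* and *Tnfrsf1b*. Among these *Rnf213* encodes a giant interferon-induced ubiquitin ligase and *Actb* the cytoskeletal actin that is often used as a reference gene. The summed level of *Acod1*, *Ccl3* and *Rsad2* alone was 131 to 330 CPM in untreated and 8388 to 10006 CPM in LPS-treated cultures. In 54 genes all 5 untreated cultures were at the floor and LPS raised the level, at least 8-fold against the floor in 35 of them. In 25 genes all 5 LPS-treated cultures were at the floor, of which *Tlr8* (at least 11.0-fold) and *Gprc5c* (at least 8.35-fold) were at least 8-fold lower.

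Non-coding genes took part. Of 772 tested long non-coding RNAs 87 were at least 2-fold higher and 85 lower, of 716 pseudogenes 34 and 9, and of 10988 protein-coding genes 945 and 917. *Mir155hg*, chosen after its values were seen, is the host transcript of miR-155, a microRNA known to rise in activated macrophages. It had 0.345, 0.0639, 0.302, 0.132 and 0.266 CPM in untreated cultures 1 to 5 and 12.4, 12.9, 14.6, 11.4 and 7.22 CPM in LPS-treated cultures 1 to 5 (log2 fold change 5.67 ± 0.31 (SE), adjusted p = 2.90e-13). These libraries measure the host transcript and not the mature microRNA, whose sequences from RefSeq (GRCm38.p6, plus strand, chr16:84714143-84714165 and chr16:84714182-84714202) are printed with the seed, bases 2 to 8, in capitals because the 2 arms have different seeds.
mmu-miR-155-5p: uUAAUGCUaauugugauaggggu
mmu-miR-155-3p: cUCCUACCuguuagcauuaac

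Most genes with large changes had the same direction in each batch. Of the genes at least 2-fold higher, 1080 of 1095 were higher in each of the 5 batches. Of those at least 2-fold lower 1007 of 1026 were lower in each. Both sets were chosen by their change in these same cultures, so this agreement was largely fixed by the choice. It was not counted over all tested genes. The median within-batch change of the first set was 1.72 to 1.86 and that of the second -1.47 to -1.33 on the log2 scale. Antiviral genes changed by a median of 4.75 (batch 4) to 5.72 (batch 2) within batches, with 4.91 in batch 1. Cytokines changed by 3.44 to 4.92, the lowest in batch 1, where untreated culture 1 had the high levels given above. Replication genes changed by -0.989 to -0.970 in batches 2 to 5 and by -0.671 in batch 1. Summed over cytokines and chemokines the LPS-treated cultures spread from 6799 CPM in culture 4 to 11731 CPM in culture 1, with untreated cultures at 661 to 803 CPM. What the difference between batches rests on was not tested.

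**Figure D4:**
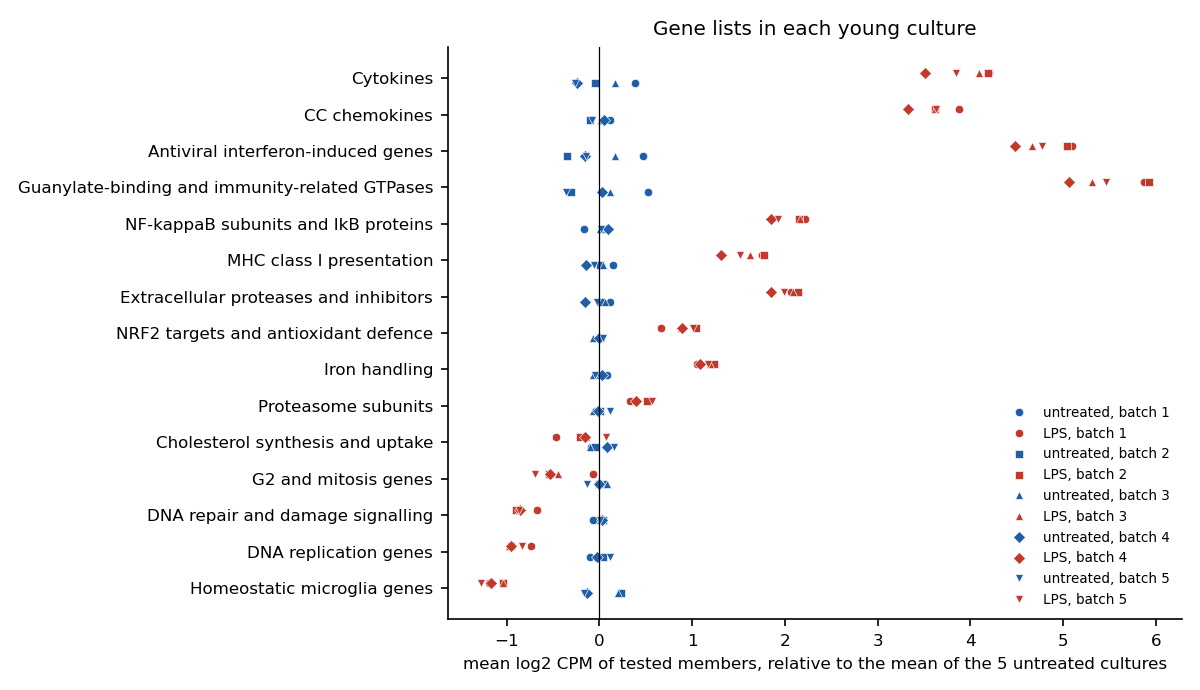
Mean log2 CPM of the tested members of 15 gene lists in each young culture, after subtraction of the untreated mean, with blue for untreated, red for LPS-treated and a marker shape for each batch. LPS-treated culture 4 (red diamonds) is lowest for cytokines, chemokines and antiviral genes, and culture 1 (red circles) lies closest to the untreated cultures for mitosis, replication and NRF2 genes.

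The response of aged cells is the one most like this, and the difference between both (young minus aged log2 fold change) was tested in the same model. It was called in 818 of 12799 genes (6.39%), 291 more positive and 527 more negative in young cells, and 2481 genes had an unadjusted p below 0.05. In 288 of them young cells had a rise that lay above the aged response, and in 514 a fall that lay below it. Another 8 rises and 1 fall were smaller in young cells, and 7 genes were not called there. In 40 of the 818 genes the young and aged responses had opposite signs, so these are not larger or smaller changes in the same direction. The number depends on single batches, with 189 calls without replicate 2, 532 without replicate 4, 410 without replicate 5, and 1156 with the replicate block. Without single young libraries it was 554 to 1038.

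Falls of replication and repair genes were often larger in young cells. Of the replication genes 32 of 47 differed and of the repair genes 19 of 39, against 6.39% of all genes, with medians of -0.91 in young and -0.45 in aged cells for the first and -0.89 and -0.41 for the second. None of the 50 mitosis genes differed by edgeR or DESeq2, and 10 had an unadjusted p below 0.05 in edgeR. *Brca1* changed by -1.83 in young and -0.92 in aged cells (log2 difference -0.91, adjusted p = 1.41e-04). *Rrm2* changed by -1.50 in young and -0.61 in aged cells. Other falls that were larger in young cells were those of *Cxcr4* (-3.96 in young and -2.36 in aged cells, log2 difference -1.60, adjusted p = 6.46e-05), *St6gal1* (log2 difference -0.87, adjusted p = 1.35e-04), *Sgsh* (log2 difference -1.12, adjusted p = 0.00171) and *Eif2ak3* (log2 difference -0.62, adjusted p = 0.00103). The difference for *Lpin1* (log2 difference -1.63, adjusted p = 0.0285) lost its call without replicate 2, 3, 4 or 5 (adjusted p = 0.0515 to 0.130).

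Among the rises called larger in young cells were those of the chemokine *Ccl9* (3.59 in young and 1.86 in aged cells, log2 difference 1.72, adjusted p = 0.0285), *Rilpl1* (log2 difference 1.68, adjusted p = 0.0392), *Phf11c* (log2 difference 1.44, adjusted p = 0.0328), *Stat2* (3.44 in young and 2.21 in aged cells, log2 difference 1.23, adjusted p = 0.0155), *Irf1* (log2 difference 0.85, adjusted p = 0.0349) and *Cdkn1a* (log2 difference 0.83, adjusted p = 0.0161). Each of these 6 differences lost its call without replicate 1, 2 or 5 (adjusted p = 0.0622 to 0.210, 0.112 to 0.264 and 0.0515 to 0.155). *Acod1*, *Csf3* and *Traf1* had smaller fitted rises in young cells. *Acod1* had 4.07 ± 1.76 CPM (SD, n = 5) untreated and 2107 ± 235 CPM (SD, n = 5) with LPS in aged cells, against 41.9 and 3554 CPM in young ones (log2 difference -2.63, adjusted p = 0.00669), and without replicate 1 the difference was -1.74 (adjusted p = 2.44e-04). Aged untreated cultures were at 0 counts for *Csf3* and at most 3 counts for *Traf1*, so their aged fold changes are no bounds (log2 difference for *Traf1* -4.0, -3.25 without replicate 1 and -4.81 without replicate 3, with an adjusted p of 0.0814 without replicate 2 and 0.0532 without replicate 5), and aged cultures had 54.3 CPM of *Csf3* and 90.3 CPM of *Traf1* with LPS, against 82.7 and 158 CPM in young ones. For most cytokines and chemokines no difference was called, among them *Tnf* (log2 difference 0.32, adjusted p = 0.488), *Ccl3* (log2 difference 0.31, adjusted p = 0.218) and *Il1b* (log2 difference 0.46, adjusted p = 0.956), which does not show that their responses were equal.

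**Figure D5:**
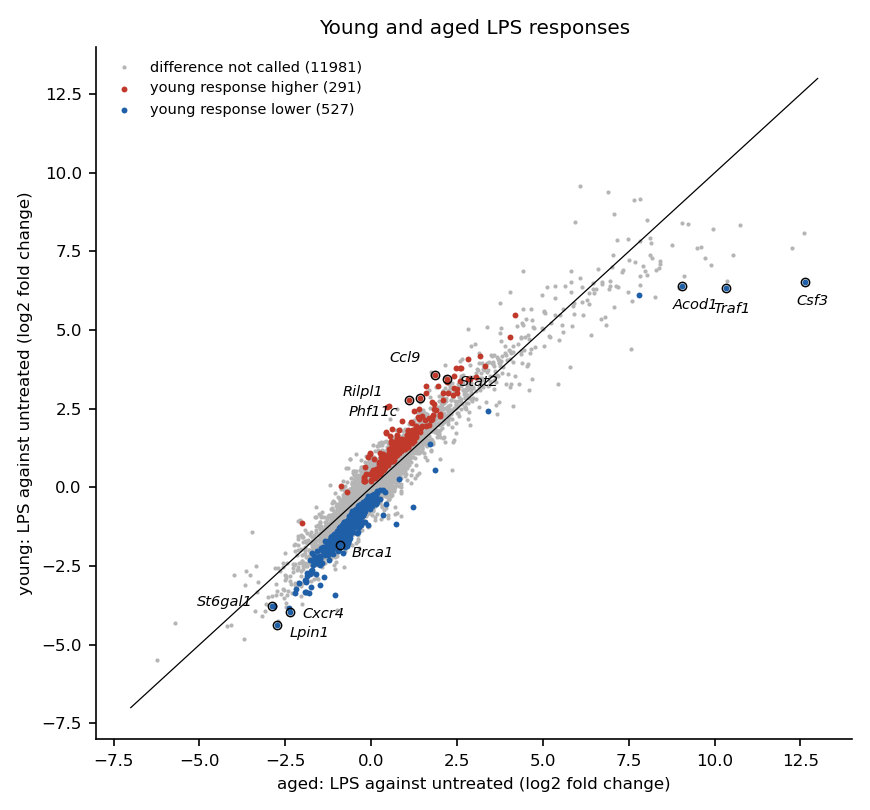
Log2 fold changes of LPS against untreated cultures in aged (horizontal) and young cells (vertical) for 12799 genes, with a line where both are equal. Differences were called in 291 genes above the line (red) and 527 below it (blue), most of the latter falls that are larger in young cells, and 2 of the 3 named genes at the right, Csf3 and Traf1, had aged untreated cultures at the floor.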

How the data were processed

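Poly(A) RNA of 20 cultures of BV-2 cells was sequenced by the authors in paired-end mode on an Illumina NextSeq 2000 after a stranded ligation kit. Per the labels and the methods of the study, reads were checked with FastQC 0.11.8, aligned to the mouse genome GRCm38 with STAR 2.6.1d and counted per Ensembl gene with featureCounts 1.5.1. The authors deposited the raw counts as whole numbers without normalization. Settings for strand, overlapping genes and multiple alignments are not given in the sources used here, so overlapping genes and near-identical copies are uncertain. The matrix listed 55487 genes, 27197 with any count, and 55227 matched the GENCODE annotation of GRCm38, from which positions came.

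Groups were compared with the quasi-likelihood F-test of edgeR 4.0.16 (with limma 3.58.1 in R 4.3.3). The model held all 20 libraries and the 4 groups, after TMM scaling, and filterByExpr kept 12799 genes. P-values were adjusted by Benjamini-Hochberg over all tested genes, with calls below 0.05. The difference of responses is the interaction in that model. SE is the absolute log2 fold change over the square root of F. Log2 CPM used a prior count of 2. RPKM used the summed length of annotated exons. A count of 3 per library was the floor; floors cover counting error only. At least N-fold compares with the mean floor of the group at it.

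The labels give replicate numbers as batches. Deviations of same-numbered untreated and LPS-treated young cultures from their group means correlated across genes at 0.122 to 0.369 (mean 0.276), other numbers at -0.251 to 0.0819 (mean -0.0675), and all 5 untreated cultures correlated best with their own number, so the numbers pair the cultures and values with the number as a block are given where they change a call or move a count by over 1.5 times. Counts of replicates differed by more than sampling noise (chi-square per degree of freedom 2.98 to 24.4 over 20 pairs).

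The 44 gene lists and named genes were chosen with earlier results of these data known. By rule the text names key members of the lists, the largest change in each direction per list, the 10 largest changes each way, the 10 largest gains and 5 largest losses in CPM, and the 3 largest differences from the aged response each way (195 genes, 190 of them tested). Some genes that the rule names are not reported here. Single further members of small lists are given beside their count. Tests ran on simulated counts with 200 genes changed 2-fold. Of these 200, edgeR recovered 183 with 11 false calls and, with the block, 182 with 11 (12456 genes tested). DESeq2 (1.42.0) recovered 182 with 21 (12799 genes tested). The simulated counts had no batch effect and far fewer changed genes than the data, so they check neither the block nor the scaling. Alternatives were DESeq2, the replicate block, other scalings and filters, the young libraries alone, a threshold of 0.01 and leaving out replicates or single libraries. Young libraries with the block were added after seeing the data. Python 3.11.15, pandas 2.3.3, numpy 2.4.6 and matplotlib 3.10.9 made tables and figures. Cytokine protein, metabolic and functional assays of the study were not analysed here.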

Additional observations from a re-analysis of the deposited data

Results flagged for a closer look

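Of 266 groups of 5 young cultures (133 genes, untreated and LPS-treated), 15 held a culture whose gap to its nearest neighbour was more than 0.71 of the group's range, Dixon's limit for 5 samples, and chance alone gives about 1 in 20 groups. Culture 1 was the one apart in 10 of the 15. Untreated culture 1 was highest for *Atf3* at 91.8 CPM against 71.8 to 75.5 CPM in the other 4 (gap over range 0.800), *Acod1* at 121 CPM against 21 to 23.2 CPM in the other 4 (gap over range 0.941), *Cfb* at 0.552 CPM against 0.132 to 0.200 CPM in the other 4 (gap over range 0.761) and *Rilpl1* at 4.48 CPM against 2.64 to 2.96 CPM in the other 4 (gap over range 0.786). It was also the one untreated culture with any count of *Il27* (gap over range 1.00), which was 0.138 CPM and under the floor. It was lowest for *Zfp36l1* at 57.7 CPM against 74.4 to 82.6 CPM in the other 4 (gap over range 0.7103), *Ccnd1* at 109.9 CPM against 149.5 to 163 CPM in the other 4 (gap over range 0.779) and *Rars* at 248 CPM against 283 to 298 CPM in the other 4 (gap over range 0.714). LPS-treated culture 1 was lowest for *Hmox1* at 412 CPM against 984 to 1076 CPM in the other 4 (gap over range 0.907) and *Slc40a1* at 10.4 CPM against 22.1 to 26.1 CPM in the other 4 (gap over range 0.817). The other 5 cases were *Rela* in untreated culture 2 at 68.8 CPM against 73.4 to 75.2 CPM (0.718), *Atf3* in LPS-treated culture 4 at 338 CPM against 396 to 420.3 CPM (0.732), *Nr4a1* in LPS-treated culture 2 at 1.58 CPM against 2.86 to 3.17 CPM (0.852), *Spi1* in untreated culture 4 at 269 CPM against 278 to 282 CPM (0.748) and *Rrm2* in LPS-treated culture 5 at 64.9 CPM against 49.2 to 51.8 CPM (0.815). Why these cultures stood apart was not tested, and the report gives values without replicate 1 beside several genes.

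The LPS response differed between young and aged cells, by the interaction test of edgeR, in 33 of the named genes. The young minus aged log2 difference was positive for *Ccl9* (1.72), *Rilpl1* (1.68), *Phf11c* (1.44), *Stat2* (1.23), *Adora2b* (1.10), *Irf1* (0.85), *Cdkn1a* (0.83), *Oasl1* (0.74), *Birc3* (0.59), *Junb* (0.43), *Acsl1* (0.43), *Myd88* (0.38), *Sod2* (0.28) and *Nop56* (0.23). It was negative for *Csf3* (-6.09), *Traf1* (-4.0), *Acod1* (-2.63), *Lpin1* (-1.63), *Cxcr4* (-1.60), *Fbxo32* (-1.45), *Sgsh* (-1.12), *Nr4a1* (-1.06), *Brca1* (-0.91), *Rrm2* (-0.89), *St6gal1* (-0.87), *Cdc45* (-0.69), *Cdkn2c* (-0.63), *P2ry1* (-0.63), *Cebpa* (-0.63), *Eif2ak3* (-0.62), *Mcm5* (-0.56), *Tk1* (-0.49) and *Ank* (-0.37). Of these 33 differences 10 kept their call in all alternatives, all of them among the 19 negative ones, and 0 of the 14 positive ones did. For *Csf3* and *Traf1* the aged untreated cultures were at the floor, so that the size of the difference is no bound.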

How the results depend on the processing

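The number of differentially expressed genes was 7481 to 8905 over the alternatives other than a threshold of 0.01 (7050) and leaving out replicates (7501 to 8016 for a replicate number in all groups, 7950 to 8215 for single young libraries). The number higher was 2407 with library sizes alone, 3629 to 3784 without a replicate number and 3841 to 3973 without a single library, and the number lower 3872 to 4232 and 4109 to 4242. Those changed at least 2-fold were 2080 to 2178 and 2114 to 2187, and 1450 (10 counts in every library) to 2907 (no filter) under the other alternatives. The replicate block gave 8671 calls, 8250 of them shared with the fit without it, and DESeq2 8458, of which 7902 were shared, none with the opposite sign. Library sizes alone gave 8808, of which 6715 were shared, 26 with the opposite sign. The difference from the aged response was called in 189 (without replicate 2) to 697 genes (without replicate 1) when a replicate number was left out, in 554 to 1038 without single libraries, in 1351 with the replicate block in DESeq2, 1041 in DESeq2 without it, and 328 at a threshold of 0.01. Of 133 named genes that were followed through the alternatives 126 kept direction and call in all of them, and the block changed no call but that of *Ccnd1*. The threshold of 0.01 and the omission of single libraries were not followed gene by gene. *Plk1* and *Fancc*, whose calls changed as given above, were not among the 133. *Rps6* reversed to -0.00989 with library sizes alone, where the cause is the shift of all genes under that scaling. A filter of 10 counts in every library removed genes silent without LPS and left 25 of the 50 raised antiviral genes and 9 of the 16 raised cytokines in the test and called. Genes near the floor, such as *P2ry12*, *Cx3cr1* and *Ifnb1*, are limited by depth.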
